A study of Mus musculus with 18 samples.

Results

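The expression of immediate early genes was read in cells sorted from mouse main olfactory epithelium, the nasal sheet in which olfactory sensory neurons (OSNs) lie. The 10 genes were Fos, Fosb, Jun, Junb, Atf3, Egr1, Nr4a1, Ier2, Arc and Npas4, chosen by symbol, and each had 1 row among the 23359 gene symbols of the expression table. The 18 libraries came from mice labelled C57BL/6 that carried a knocked-in Taar5-ires-Cre or Taar6-ires-Cre allele, so that a neuron transcribing that trace amine-associated receptor (TAAR) gene also makes Cre and turns on a fluorescent reporter. In the Taar5 line, at postnatal day 11 to 14 with the L10-GFP reporter, there were 7 libraries of reporter-positive cells (Taar5+) and 9 of reporter-negative cells (control). In the Taar6 line, at postnatal day 16 to 17 with the ZsGreen reporter, there was 1 library of each kind. The controls carried the same Cre and reporter alleles and were a mixture of cells, mostly OSNs that express odorant receptors. The study's own reporting summary gives an older age for the mice than the labels do, and mixed strain backgrounds rather than C57BL/6 alone. The labels do not say whether libraries of a group came from separate animals, so the tests measure the spread between libraries.

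Immediate early genes are transcribed soon after a cell is stimulated, without the need for newly made protein. Calcium, cyclic AMP and kinase cascades act on factors that already sit at their promoters, such as CREB and the serum response factor, and many of the products are themselves transcription factors that act on later genes. In OSNs odour raises cyclic AMP and calcium, and these genes are used as markers of recently active neurons. In many tissues they are also induced while cells are being dissociated and sorted. Here every library was made after papain digestion of the tissue, trituration and fluorescence-activated sorting, and no library of unsorted tissue was analysed, so levels before and after handling cannot be told apart.

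Fos, Fosb, Jun and Junb encode subunits of the AP-1 transcription factor, in which a Fos protein pairs with a Jun protein, and Atf3 encodes a stress-induced partner of the same leucine zipper class. Fos lies on chromosome 12 (85473890 to 85477273, plus strand), Fosb on chromosome 7 (19302696 to 19310051, minus strand), Jun on chromosome 4 (95049034 to 95052222, minus strand), Junb on chromosome 8 (84974484 to 84978718, minus strand) and Atf3 on chromosome 1 (191170296 to 191218039, minus strand), as GENCODE M21 places them on GRCm38. The 120 bases before the RefSeq start of each of these 5 genes are printed because this group held both the pair of genes that moved together most closely from library to library and the gene with the largest difference between groups. The RefSeq start used for Atf3 lies inside the GENCODE span of the gene, so its window is not upstream of the whole gene. Capitals mark the core of the cyclic AMP response element, TGACG, on either strand (CGTCA where it is on the other strand).
Fos, chr12:85473770-85473889, plus strand: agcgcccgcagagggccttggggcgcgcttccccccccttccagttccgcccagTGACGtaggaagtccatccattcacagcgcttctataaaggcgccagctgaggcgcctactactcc
Fosb, chr7:19310046-19310165, minus strand: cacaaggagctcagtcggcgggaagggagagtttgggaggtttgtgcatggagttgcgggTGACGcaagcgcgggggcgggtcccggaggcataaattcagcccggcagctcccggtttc
Jun, chr4:95052223-95052342, minus strand: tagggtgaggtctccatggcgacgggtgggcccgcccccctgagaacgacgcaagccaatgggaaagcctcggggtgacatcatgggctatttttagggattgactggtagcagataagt
Junb, chr8:84978749-84978868, minus strand: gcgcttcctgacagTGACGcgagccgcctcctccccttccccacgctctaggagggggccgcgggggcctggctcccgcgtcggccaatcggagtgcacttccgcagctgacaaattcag
Atf3, chr1:191183334-191183453, minus strand: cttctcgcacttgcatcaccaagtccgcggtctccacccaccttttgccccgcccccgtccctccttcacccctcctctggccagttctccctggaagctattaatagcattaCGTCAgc

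The promoter sequences are from RefSeq on GRCm38.p6, in which 7 of the 10 genes were matched (Egr1, Arc and Ier2 were not). The starts used for Atf3, Nr4a1 and Npas4 lie inside the GENCODE span of the gene, so other starts of these genes were not searched. Within the 250 bases before the start, TGACG was present on either strand in 6 of the 7 promoters, against 17.8% of 32851 mouse promoters of the same length. In Fos the match nearest the start ran from base 66 to base 62 before it, and in Fosb from base 60 to base 56. Jun was the promoter with no match. The full element TGACGTCA, which contains TGACG, was present in 0 of the 7 against 1.55% of all promoters, and the AP-1 motif TGANTCA in 0 of the 7 against 6.75%. The serum response factor motif known as the CArG box was present in 0 of the 7 against 1.47%. Elements farther than 250 bases before the start were not searched, so a count of 0 holds for these windows only. A match describes letters only, and these windows do not show whether a factor was bound.

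Transcripts were quantified as TPM (a share of all transcripts, corrected for their length), so levels can be compared between genes. How many reads lie behind each value is unknown. Among Taar5-line libraries, between 5939 and 17808 gene rows were above 0, the fewest in control replicate 2 and the most in Taar5+ replicate 5, and these libraries also stood apart in markers of other cells. All 8 markers of mature OSNs, including Omp, were above 0 in each of the 18 libraries. Markers of sustentacular cells, the supporting cells of the epithelium (5 genes), summed to 9078 TPM in control replicate 2 and 7514 TPM in Taar5+ replicate 5, against 29.2 to 730.9 in the other controls and 62 to 1774 in the other Taar5+ libraries. Where leaving out either library changed a call of an immediate early gene or a related response gene, the result is given with and without it. Other values are from all libraries unless stated.

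Fos, Jun and Ier2 were abundant in both groups, and Arc and Npas4 were near the floor of the table. Over the 16 libraries of the Taar5 line the order of mean levels on the log2(TPM + 1) scale was Fos (8.79), Jun (8.24), Ier2 (7.91), Junb (6.53), Egr1 (6.16), Atf3 (5.35), Nr4a1 (5.08), Fosb (3.59), Arc (1.80) and Npas4 (0.38). Fos lay above Jun within 15 of the 16 libraries, Ier2 above Junb within 16, Nr4a1 above Fosb within 15 and Fosb above Arc within 15. Arc lay above Npas4 within 12 libraries, and both were listed at 0 in the other 4. The remaining 4 pairs of neighbours were not separated beyond the spread between libraries: Jun lay above Ier2 within 9 libraries, Junb above Egr1 within 10, Egr1 above Atf3 within 11 and Atf3 above Nr4a1 within 8. The median level of Fos stood at percentile 98.9 of all gene symbols in controls and 98.0 in Taar5+ cells. Added together, the 10 genes reached 658 to 2224 TPM in controls with a median of 1774, and 459 to 3006 TPM in Taar5+ libraries with a median of 920. Fos alone made up a median of 33.1% of this sum in controls and 33.2% in Taar5+ cells.

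**Figure D1:**
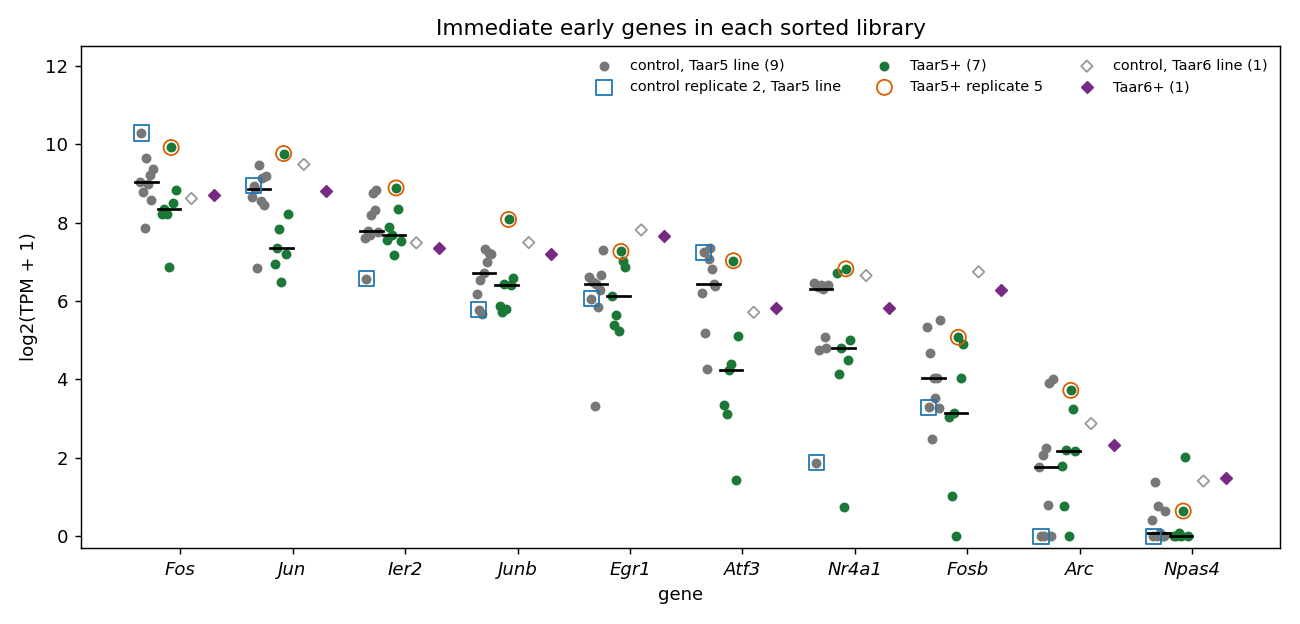
Level of each immediate early gene in the 18 sorted libraries, as log2(TPM + 1) on the vertical axis, with 1 point per library and a black line at the median of each Taar5-line group. The groups overlapped for every one of the 10 genes, and Taar5+ replicate 5 (orange ring) was the highest or second highest Taar5+ library for each gene.

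Taar5+ cells were compared with controls to ask whether TAAR neurons carried a different level of these transcripts after sorting. The labels do not say which libraries were sorted together. None of the 9 genes that could be tested passed the threshold (limma on log2(TPM + 1) over 12502 genes, Benjamini-Hochberg adjusted p under 0.05). In that comparison 0.168% of the genes tested were called, 21 in number. At an unadjusted p under 0.05 there were 2 of the 9, Atf3 and Jun, both lower in Taar5+ cells, against 7.05% of all genes tested. Most genes past that p were lower as well, 672 of 881. The estimated difference was negative for 7 of the 9 genes with a median of -0.67 on the log2 scale, against 48.6% negative and a median of 0.02 for all genes tested. With limma array weights, which give aberrant libraries less weight, 3 of the 9 were called (Atf3, Jun and Nr4a1, each lower in Taar5+ cells), but so were 1329 genes in all and the median of all genes moved to -0.16. Only 181 of those 1329 were higher in Taar5+ cells. In bulk libraries, fewer cells that hold a transcript and less of it per cell cannot be told apart.

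Atf3, which is induced by many kinds of cell stress and by nerve injury, had the largest difference of the 10. Its TPM in controls ran from 18.1 to 161.6 with a median of 85.6, and in Taar5+ libraries from 1.72 to 129.3 with a median of 17.8. In 4 of the 7 Taar5+ libraries Atf3 lay below every control, and 3 of the 9 controls lay above every Taar5+ library, but the groups overlapped. Taar5+ replicate 5 held 129.3 TPM, where the others of its group held at most 33.7 TPM, and Taar5+ replicates 4 (20 TPM) and 7 (33.7 TPM) also lay above the lowest control. The difference was -2.23 on the log2 scale (SE 0.64, 95% interval -3.56 to -0.90, adjusted p = 0.239), or 0.213-fold. Without Taar5+ replicate 5 the difference was -2.72 and passed the threshold (adjusted p = 0.0301), as it did with array weights (adjusted p = 0.0213) and without both libraries that stood apart (adjusted p = 0.011). Over 27 alternatives the adjusted p ranged from 0.011 to 0.513.

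Markers of horizontal basal cells, the reserve stem cells of the epithelium, were, like Atf3, lower in most Taar5+ libraries, and so were markers of some other cells. The summed TPM of Krt5, Krt14 and Trp63 was 60.1 to 122.5 in 8 controls and 0 in control replicate 2, and 0 to 17.5 in 6 Taar5+ libraries and 180.9 in Taar5+ replicate 5. With all libraries of the Taar5 line, all 3 markers had a negative estimate, from -2.07 for Trp63 to -3.04 for Krt14. Each had an unadjusted p under 0.05 (limma) without passing the threshold. The libraries did not line up throughout: control replicate 2, with all 3 markers listed at 0, held 150.3 TPM of Atf3, while Taar5+ replicates 2 and 6, also with all 3 at 0, held 7.67 and 1.72 TPM. The summed TPM of 3 microvillar cell markers was 12.6 to 608.1 in controls with a median of 121.8, and 0.266 to 175.1 in Taar5+ libraries with a median of 5.73, and both that were tested had a negative estimate. Of 7 blood and immune markers 6 had a negative estimate, with a median of -1.68, and their summed TPM was 4.67 to 6261 in controls (median 1068) and 5.71 to 1487 in Taar5+ libraries (median 513.5). All 4 tested markers of ensheathing glia and all 4 of neuronal progenitors also had negative estimates, with medians of -0.75 and -0.66. None of the markers in these 5 lists passed the threshold. At an unadjusted p under 0.05 (limma) there were 3 of 3 horizontal basal, 1 of 2 microvillar and 3 of 7 blood and immune markers, each lower in Taar5+ cells. There were 0 of 4 ensheathing glia and 0 of 4 progenitor markers, against 7.05% of all genes tested. Not every list leaned this way: sustentacular markers had a median of 0.54 (2 of 5 negative) and gland markers 0.055 (2 of 4). Mature OSN markers had a median of 0.30 (2 of 8 negative, 1 of them called). Immature OSN markers had -0.20 (4 of 5 negative), and endothelial and pericyte markers -0.67 (1 of 2). The part of these cells in the difference was not tested.

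Jun, the main dimer partner of Fos, gave the next smallest p of the 10. Its TPM ran from 113.9 to 708.2 in controls with a median of 464.5, and from 88.6 to 864.5 in Taar5+ libraries with a median of 161.3. Both extremes of the Taar5 line were Taar5+ libraries, with replicate 4 lowest and replicate 5 highest, and 6 of the 7 Taar5+ libraries lay below the control median. The difference was -0.99 (SE 0.41, 95% interval -1.86 to -0.13, adjusted p = 0.566). It was called with array weights (adjusted p = 0.0132) and without both libraries that stood apart (-1.31, adjusted p = 0.0466), while without Taar5+ replicate 5 alone the adjusted p was 0.0868. Over 27 alternatives the adjusted p ranged from 0.0132 to 0.964.

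Fos, the classic marker of recent neuronal activity, was high in each group. Its TPM ran from 232.3 to 1243 in controls with a median of 521.6, and from 115.1 to 962.1 in Taar5+ libraries with a median of 323.1. The highest value belonged to control replicate 2 and the lowest to Taar5+ replicate 4, and 6 of the 7 Taar5+ libraries were below the control median. The difference of -0.67 (SE 0.36, 95% interval -1.41 to 0.08, adjusted p = 0.803) did not exceed the spread between libraries, and without Taar5+ replicate 5 it was -0.92 (adjusted p = 0.282).

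Fosb, the relative of Fos that also gives rise to the long-lived truncated form called delta FosB, was far less abundant. It ran from 4.57 to 45 TPM in controls with a median of 15.3, and from 0 to 32.7 in Taar5+ libraries with a median of 7.86, and Taar5+ replicates 2 and 4 lay below every control. The difference was -0.98 (SE 0.72, adjusted p = 0.932). Junb, a Jun protein that can act against Jun at some promoters, had medians of 104.6 TPM in controls (49.6 to 158) and 84.5 TPM in Taar5+ libraries (51.7 to 269.2). No Taar5+ library lay below the controls and only replicate 5 lay above them, with a difference of -0.21 (SE 0.35, adjusted p = 0.971).

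Egr1 (chromosome 18, 34859823 to 34864984, plus strand) encodes a zinc finger factor that follows kinase signalling through the serum response factor. Its TPM ran from 9.10 to 157 in controls with a median of 85.5, and from 36.6 to 152.6 in Taar5+ libraries with a median of 68.4. The Taar5+ libraries lay wholly within the control range. The difference was 0.11 (SE 0.47, adjusted p = 0.986), and it was -0.24 without control replicate 4, where Egr1 was lowest.

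Nr4a1 (chromosome 15, 101254269 to 101274795, plus strand) encodes an orphan nuclear receptor induced by calcium and growth signals. It ran from 2.67 to 86.7 TPM in controls with a median of 77.7, and from 0.695 to 112 TPM in Taar5+ libraries with a median of 27.1. Control replicate 2 stood far below the other controls (25.9 or more), and Taar5+ replicate 4 was at 0.695 TPM. The difference was -0.71 (SE 0.79, adjusted p = 0.955) with all libraries, -1.14 without control replicate 2 and -0.05 without Taar5+ replicate 4. With array weights it was called (-1.13, adjusted p = 0.0454, the lowest of 27 alternatives, of which the highest was 1).

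Ier2 (chromosome 8, 84661331 to 84662852, minus strand), a nuclear protein of the early growth response, varied least within groups of the 9 genes tested (residual SD 0.64 on the log2 scale). It ran from 94.1 to 453.7 TPM in controls with a median of 220.3, and from 143.1 to 470.7 in Taar5+ libraries with a median of 203.5. The difference was -0.08 (SE 0.31, 95% interval -0.73 to 0.56, adjusted p = 0.982).

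Arc and Npas4 are the members most closely tied to neurons. Arc (chromosome 15, 74669083 to 74672570, minus strand) acts at synapses in receptor trafficking, and Npas4 (chromosome 19, 4984355 to 4990316, minus strand) is a transcription factor induced by calcium entry and little by other stimuli. Arc ran from 0 to 15.3 TPM in controls with a median of 2.39, and from 0 to 12.2 in Taar5+ libraries with a median of 3.56. It was listed at 0 in 3 controls and 1 Taar5+ library, and the difference was 0.34 (SE 0.71, adjusted p = 0.977). Npas4 reached 1 TPM in 2 of the 16 libraries, control replicate 3 with 1.63 TPM and Taar5+ replicate 6 with 3.08 TPM, was listed at 0 in 4 controls and 4 Taar5+ libraries, and did not enter the fit. Its difference in mean log2(TPM + 1) was 0.03, and an exact two-sided permutation test over 11440 splits gave p = 0.912.

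**Figure D2:**
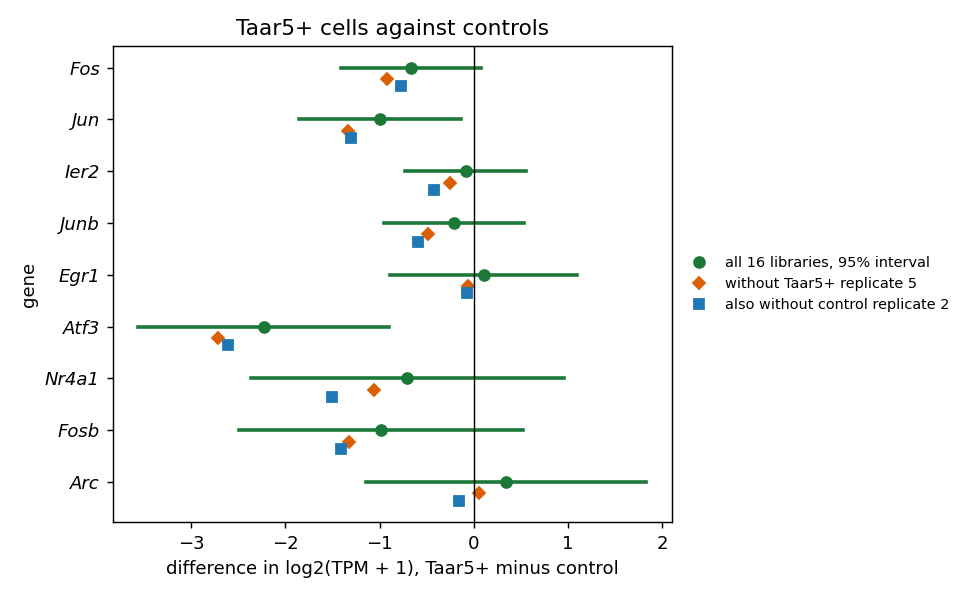
Difference between Taar5+ cells and controls for the 9 tested genes on the log2(TPM + 1) scale, with the estimate from all 16 libraries and its 95% interval as a bar (limma), the estimate without Taar5+ replicate 5 (diamond) and without control replicate 2 as well (square). The intervals of Atf3 (-3.56 to -0.90) and Jun (-1.86 to -0.13) lie below 0 before adjustment, and the diamond lies to the left of the circle for each gene.

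Among other early response genes no call was made either. Of 35 relatives (the remaining AP-1, Egr, Nr4a and Klf genes and other genes induced early), 24 were tested and 0 were called. At an unadjusted p under 0.05 there were 3, each lower in Taar5+ cells, as were 672 of the 881 genes past it in all. Of the 24, 18 had a negative estimate, with a median of -0.44. Cyr61, a secreted matrix protein, had a median of 51.7 TPM in controls (11 to 141) and 0.507 TPM in Taar5+ libraries (0 to 268.2), a difference of -3.38 (SE 0.96, adjusted p = 0.237). Without Taar5+ replicate 5 the difference of Cyr61 was -4.355 and was called (limma, adjusted p = 0.00349). Egr2, the relative of Egr1, had medians of 4.79 and 0 TPM and a difference of -2.04 (SE 0.71, adjusted p = 0.374). Ier3, an inhibitor of cell death, differed by -1.60 (SE 1.21, adjusted p = 0.935). Among the relatives with the highest levels, the antiproliferative gene Btg2 had medians of 92.5 TPM in controls and 44.6 TPM in Taar5+ cells (-0.94, SE 0.43, adjusted p = 0.665). The kinase gene Sgk1 had medians of 56.9 and 45.4 TPM (-0.65, SE 0.92, adjusted p = 0.959).

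Feedback regulators are induced with the immediate early genes and switch the response off. Of 25 such genes 21 were tested and 0 were called. At an unadjusted p under 0.05 there were 5, each lower in Taar5+ cells, as were 672 of the 881 genes past it in all. Of the 21, 18 had a negative estimate, with a median of -0.81. Dusp1, the phosphatase that inactivates MAP kinases, ran from 350.6 to 600.2 TPM in controls and had a median of 197 TPM in Taar5+ libraries (170.2 to 750.1). Its difference was -0.81 (SE 0.26, adjusted p = 0.312), and without Taar5+ replicate 5, which held 750.1 TPM, it was -1.07 and was called (adjusted p = 0.00406, where 27 alternatives ranged from 0.000772 to 0.619). Zfp36, which speeds the decay of short-lived mRNAs, differed by -2.37 (SE 0.88, adjusted p = 0.437), Rgs2, a brake on G protein signalling, by -2.29 (SE 0.76, adjusted p = 0.334) and Gadd45g, a growth arrest gene, by -2.12 (SE 0.69, adjusted p = 0.315). Ppp1r15a, which reverses the arrest of translation under stress, had medians of 432.7 and 241.6 TPM (-0.53, SE 0.31, adjusted p = 0.853). Without both libraries that stood apart 4 feedback regulators (Dusp1, Gadd45g, Rgs2 and Zfp36) and 2 relatives (Cyr61 and Egr2) were called, all lower in Taar5+ cells, among 337 genes in all. Only 49 of those 337 were higher in Taar5+ cells.

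Heat shock and chaperone genes, some of which also respond to handling of cells, were measured beside them. All 19 were tested, 0 were called and 0 had an unadjusted p under 0.05, 12 had a negative estimate, and the median was -0.06. The constitutive chaperone genes Hspa8 and Hsp90ab1 were the highest, with medians of 2407 and 1944 TPM in controls and 2568 and 1832 TPM in Taar5+ cells. The stress-inducible Hspa1a had medians of 4.83 and 5.90 TPM. The largest estimates were -0.78 for Bag3 (SE 0.69), -0.73 for Hspb1 (SE 1.11) and 0.53 for Hspb8 (SE 1.17). Of 32 upstream factors, the kinases, transcription factors and coactivators that act on immediate early promoters, 29 were tested, 0 were called, 0 had an unadjusted p under 0.05 and 12 had a negative estimate, with a median of 0.15. Their largest estimates were 1.04 for Camk2a (SE 0.72), -0.92 for Elk1 (SE 0.62) and 0.71 for Crebbp (SE 0.65), and Mapk10 and Map2k2, the highest by mean log2(TPM + 1), had control medians of 103.6 and 103 TPM.

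The levels of several immediate early genes varied widely between libraries of the same group. The residual SD on the log2 scale was 0.91 for Jun, 0.78 for Fos and 1.75 for Nr4a1. Among the 200 tested genes nearest in mean level these stood at percentiles 95, 91.5 and 90.5, where the median SD of the neighbours was 0.42, 0.40 and 1.44. Without control replicate 2 and Taar5+ replicate 5 the SD fell to 0.735 for Jun, 0.603 for Fos and 1.40 for Nr4a1. Quantile normalization took Nr4a1 to 1.16. The SD of the neighbours was not recomputed for these settings. Ier2 stood at percentile 84, Junb at 63.5, Egr1 at 63, Arc at 59.5, Fosb at 54 and Atf3 at 48. The spread of Atf3 within groups (1.38) was therefore close to that of other genes of its level (1.44).

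**Figure D3:**
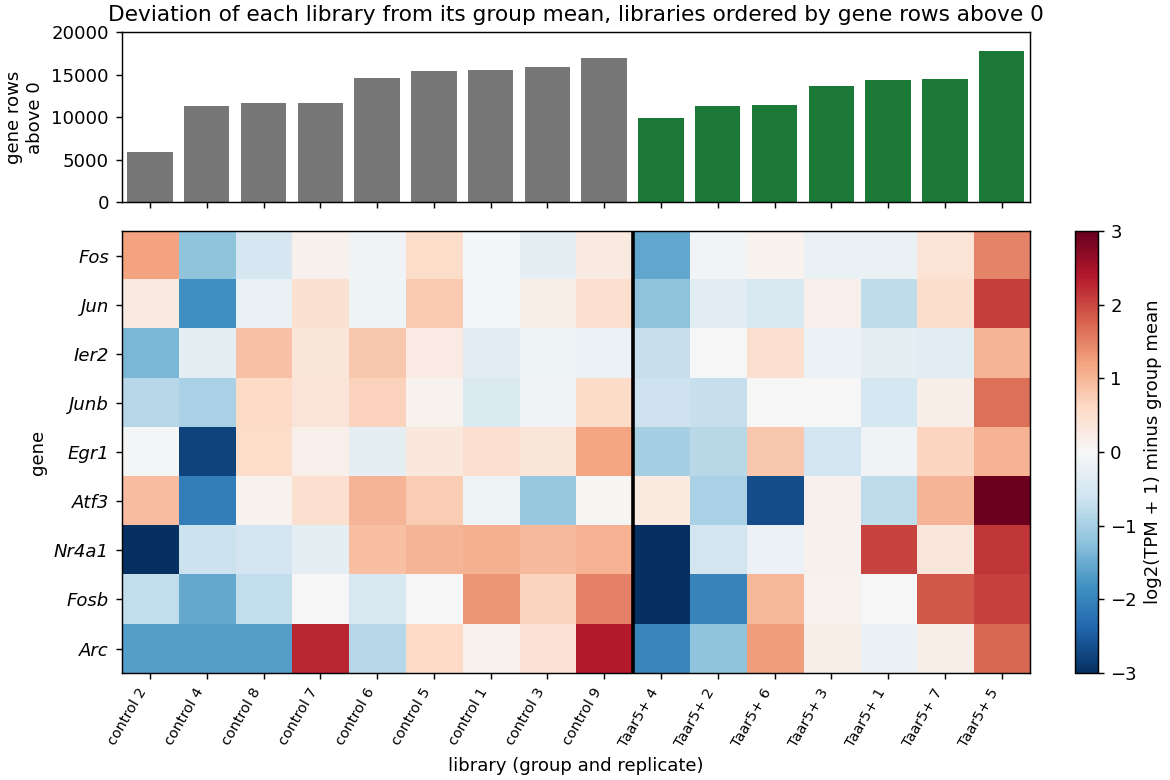
Deviation of each library from its group mean in log2(TPM + 1) for the 9 tested genes (colours, ending at 3 in either direction), with the number of gene rows above 0 in each library as bars. Libraries are ordered by that number within each group, from 5939 to 17015 in controls and from 9866 to 17808 in Taar5+ cells. Taar5+ replicate 5 is above its group mean for each gene, and Taar5+ replicate 4 is below it for each gene but Atf3.

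The immediate early genes moved together from library to library. Taar5+ replicate 5 was among the 4 highest of the 16 libraries for all 9 tested genes and control replicate 9 for 7, while Taar5+ replicate 4 was among the 4 lowest for 8 and control replicate 4 for 6. With group means removed, Pearson's r was positive for 36 of 36 pairs, with a median of 0.575 and a median Spearman's rho of 0.534. Over every pair of the genes tested the median r was 0.224, and 69% were positive. By a permutation test within groups with Benjamini-Hochberg adjustment over the 36 pairs, 16 passed 0.05 by r and 10 of these also by rho. The median r was 0.480 within the 9 controls and 0.744 within the 7 Taar5+ libraries.

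Fos and Jun were the most closely related pair (r = 0.856, p = 0.00019, adjusted p = 0.00336; rho = 0.797, p = 0.00038, adjusted p = 0.00972; permutation tests over 16 libraries). Their r was 0.920 without the 2 libraries farthest from the median of Fos, 0.790 within controls and 0.903 within Taar5+ libraries. Fosb was related to Arc (r = 0.764, p = 0.00028, adjusted p = 0.00336; rho = 0.752, p = 0.00083, adjusted p = 0.00972) and to Egr1 (r = 0.750, p = 1e-05, the smallest these permutations can give, adjusted p = 0.00036; rho = 0.794, p = 0.00062, adjusted p = 0.00972). Without the 2 farthest libraries these were 0.705 and 0.748, within controls 0.733 and 0.745, and within Taar5+ libraries 0.916 for both. Junb was related to Ier2 (r = 0.772, p = 0.00058, adjusted p = 0.00522; rho = 0.709, p = 0.00363, adjusted p = 0.0261), with r = 0.653 without the 2 farthest libraries, 0.791 within controls and 0.789 within Taar5+ libraries. Jun had the most partners past the threshold by r, 6 of 8, and Atf3 and Ier2 the fewest, 1 of 8 each. The partner of Atf3 was Jun (r = 0.740, p = 0.00413, adjusted p = 0.0169; rho = 0.653, p = 0.00984, adjusted p = 0.0443), with r = 0.788 without the 2 farthest libraries, 0.728 within controls and 0.751 within Taar5+ libraries. Without control replicate 2 and Taar5+ replicate 5, Jun and Atf3 had r = 0.558 and did not pass (permutation test, adjusted p = 0.0935). Nor did Junb and Ier2 (r = 0.607, adjusted p = 0.0809), while Fos and Jun did (r = 0.857, adjusted p = 0.00234).

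The number of gene rows above 0 in a library moved with several of the genes. It was related to Nr4a1 (r = 0.886, p = 1e-05, the smallest these permutations can give, adjusted p = 9e-05 over 9 genes; rho = 0.888, p = 2e-05, adjusted p = 0.00018), with r = 0.868 without the 2 farthest libraries, 0.978 within controls and 0.845 within Taar5+ libraries. Fosb (r = 0.672, p = 0.00187, adjusted p = 0.00841; rho = 0.750, p = 0.00125, adjusted p = 0.00562) kept r = 0.699 without the 2 farthest libraries, 0.691 within controls and 0.787 within Taar5+ libraries. Junb and Arc also passed by r and rho. Jun and Egr1 passed by rho but not by r, and Fos (r = 0.222, p = 0.408, adjusted p = 0.408; rho = 0.318, p = 0.24, adjusted p = 0.295), Ier2 and Atf3 by neither. For Fos and Atf3, r was 0.848 and 0.702 within Taar5+ libraries and -0.247 and -0.134 within controls, a difference that was not tested. The controls include replicate 2, with the fewest rows above 0 (5939) and 1243 TPM of Fos, the highest value of the controls. The r within controls was not recomputed without it. Over both groups without the 2 farthest libraries, Fos and Atf3 had r = 0.618 and 0.602, and Ier2 had -0.030. With the number of rows above 0 removed by regression, a step chosen after the data were seen, 8 of the 36 pairs passed 0.05 by r, 32 had a positive r and the median r was 0.331, against 0.020 over every pair of the genes tested. Fos and Jun then had r = 0.882 (permutation p = 0.00018, adjusted p = 0.00648), Fosb and Egr1 0.675 (adjusted p = 0.0245) and Jun and Atf3 0.729 (adjusted p = 0.0245), while Fosb and Nr4a1 went from 0.698 to 0.297 (adjusted p = 0.617). Without the 2 libraries that stood apart, 14 of the 36 pairs passed and the median r was 0.485.

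**Figure D4:**
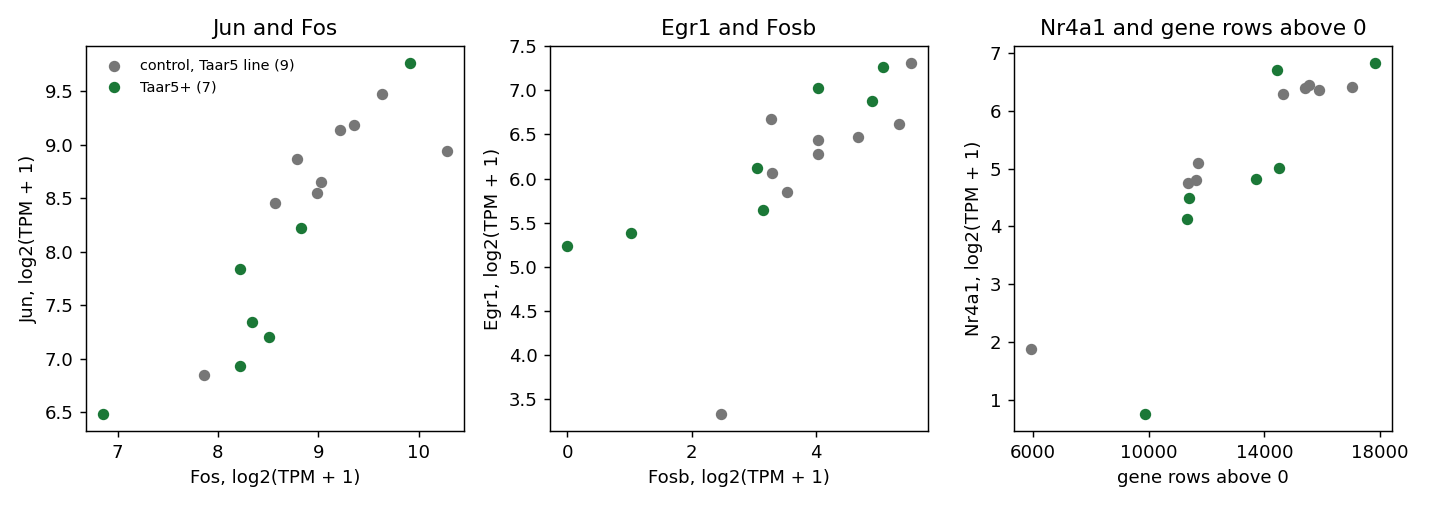
Jun against Fos, Egr1 against Fosb, and Nr4a1 against the number of gene rows above 0 in the 16 libraries of the Taar5 line, with gene levels as log2(TPM + 1) and 1 point per library. With group means removed, Pearson's r was 0.856, 0.750 and 0.886.

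The genes most like the immediate early genes in this pattern were outside the lists of early response genes. The 6 tested genes with the highest Pearson r with the mean deviation of the 9 genes over the 16 libraries were Acly (0.914), Lcp1 (0.914), Ncapd2 (0.901), Gtf3c2 (0.884), Cotl1 (0.881) and Cnnm2 (0.880). Acly encodes the enzyme that makes cytosolic acetyl-CoA from citrate, Lcp1 and Cotl1 encode actin-binding proteins found in blood cells, and Ncapd2 encodes a condensin subunit. Each r was chosen as an extreme of 12493 genes and is given as a description. Of the relatives tested 11 of 24 had r above 0.5 with a median of 0.455, and of the feedback regulators 9 of 21 with a median of 0.442, against 3413 of 12493 genes in all with a median of 0.318. The upstream factors stood as high, with 13 of 29 above 0.5 and a median of 0.492, and heat shock genes had 7 of 19 and 0.354. Such r was therefore not particular to early response genes. The median r was 0.570 for 3 horizontal basal markers, 0.469 for 4 progenitor markers and -0.145 for the 8 markers of mature OSNs.

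In the Taar6 line, with 1 library of each kind and no test, 7 of the 10 genes were lower in the reporter-positive library. The median difference on the log2(TPM + 1) scale was -0.22, against -0.21 over 15189 genes with at least 1 TPM in either library. Fos was 390.4 TPM in the control and 412.5 TPM in Taar6+ cells, Jun 713.4 and 446, and Atf3 51.4 and 55.5. The 2 genes Fosb (106 and 76.2 TPM) and Egr1 (223.6 and 200.7 TPM) lay above each of the 16 libraries of the Taar5 line, whose highest values were 45 and 157 TPM. Of the 15189 genes 21.9% did so. Npas4 was 1.67 TPM in the control and 1.79 TPM in Taar6+ cells. Line, reporter and age cannot be told apart between the lines.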

How the data were processed

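RNA-seq had been carried out on sorted cells by Smart-seq2, a PCR-amplified full-length cDNA method without molecular identifiers. Per the study's methods and the submitters' processing notes, the authors trimmed reads (Trimmomatic 0.36), mapped them to mm10 (HISAT2 2.1.0) and quantified genes with Cufflinks 2.2.1. The deposited values are TPM, which summed to 1000000.0 in each library but control replicate 2 of the Taar5 line, where the sum was 1000115.2. Strand handling, treatment of reads that map to several genes and the annotation are not given in the sources used here. TPM hide the read number, so neither depth nor counting error is known, and some values of 0 may be failed estimates. The notes also name DESeq2, which needs counts and was not used here.

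Of 23847 rows, 488 repeated a symbol and were summed with it. The Taar values of control replicate 2 copy those of replicate 1 and were treated as missing in replicate 2. The 16 Taar5-line libraries were compared by limma 3.58.1 (R 4.3.3, lmFit and eBayes with trend) on log2(TPM + 1) for the 12502 genes that reached 1 TPM in 7 or more of them, the Benjamini-Hochberg adjusted p being held to 0.05. Changes of low genes are understated on this scale. The 2 Taar6-line libraries stayed out of tests. Relations between genes used deviations from group means and 100000 permutations within groups (Python 3.11.15, numpy 2.4.6). The limma step was also tested on simulated data.

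The 10 genes, the 4 lists of related genes, the marker lists and the 2 libraries left out together were chosen with earlier results of these data known. Named were all 10 genes; of each list the 3 tested genes with the largest change and the 2 with the highest level; and the 6 genes most like the 10. Hspa1a, Omp and the horizontal basal markers were named outside this rule. Positions are from GENCODE M21. Alternatives were other pseudocounts, filters, scalings and models, each library left out in turn, 10 controls, and a replicate block.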

Additional observations from a re-analysis of the deposited data

Results flagged for a closer look

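In each group of the Taar5 line, the gap between the most extreme library and its nearest neighbour was set against the range of the group on the log2(TPM + 1) scale (Dixon's criterion at 95%). Of 20 gene and group combinations 5 had an outlying library, where chance would give about 1 if values were normally distributed. The 5 are not separate cases, since the genes moved together and control replicate 4 recurs among them. Npas4 was listed at 0 in 4 Taar5+ libraries, where the criterion does not hold, so the excess cannot be interpreted. Junb was 269.2 TPM in Taar5+ replicate 5, against 51.7 to 95.2 in the other Taar5+ libraries. Control replicate 4 held 113.9 TPM of Jun, against 349.8 to 708.2 in the other controls. The same library held 9.10 TPM of Egr1, against 56.8 to 157. Nr4a1 was 2.67 TPM in control replicate 2, against 25.9 to 86.7 in the other controls. Npas4 was 3.08 TPM in Taar5+ replicate 6, against 0 to 0.567 in the other Taar5+ libraries.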

How the results depend on the processing

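Of 264 recomputed fold changes of the 10 genes, 235 kept their sign and their side of the threshold, 6 passed it and 23 had another sign. The number of the 10 genes called was 3 with array weights, 2 without control replicate 2 and Taar5+ replicate 5, and 0 to 1 when each library was left out in turn (1, Atf3, without Taar5+ replicate 5). The number of genes called in all was 1329, 337 and 16 to 148 under the same settings (148 without control replicate 2, 66 without Taar5+ replicate 5), 36 with quantile normalization, 11 with TPM rescaled without receptor genes and 12 with the replicate block. With array weights 6 relatives, 10 feedback regulators and 1 heat shock gene were called, and without both libraries 2 relatives and 4 feedback regulators. Leaving out each library gave 0 to 1 relatives (Cyr61, without Taar5+ replicate 5) and 0 to 1 feedback regulators (Rgs2 without control replicate 2, Dusp1 without Taar5+ replicate 5). The cause was not tested. Quantile normalization shifted the median of all genes to 0.17 and leaving out both libraries to -0.22.

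Egr1, Arc, Ier2 and Npas4, whose differences were near 0, changed sign. Egr1 was -0.21 with array weights, -0.073 without both libraries, -0.062 with 10 controls and -0.24 to 0.27 with a library left out. Arc was -0.15 with array weights and -0.15 without both libraries. Ier2 was 0.016 with the replicate block and -0.26 to 0.03 with a library left out. Npas4 was -0.19 with a pseudocount of 0.1, -0.058 without both libraries, -0.075 with 10 controls and -0.24 to 0.16 with a library left out.

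Libraries that share a replicate number did not deviate together throughout (r of -0.006 to 0.275, over 0.1 for 5 of 7 numbers, with 3 of 7 Taar5+ libraries most like the control of their own number), so the numbers were not taken to pair the libraries. With the replicate block 0 of the 10 genes were called. Of 180 recomputed spreads 12 moved. The number of related pairs was 14 with a pseudocount of 0.1 and 8 with the number of rows above 0 removed.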

Other observations

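Some early response genes and many upstream factors had levels in the Taar6 line outside the range of the Taar5 line. Of 33 relatives of the immediate early genes with at least 1 TPM in the Taar6 line, 13 lay in both of its libraries above each of the 16 libraries of the Taar5 line, as did 21 of 32 upstream factors, 5 of 25 feedback regulators and 2 of the 10 immediate early genes, against 21.9% of 15189 genes. Jund, the AP-1 subunit that is normally present in unstimulated cells, was 351.6 TPM in the control and 266.4 TPM in Taar6+ cells, while in the Taar5 line it was at most 16.6 TPM and had a control median of 2.46 TPM. Homer1, a synaptic scaffold gene with an early induced short form, was 18 and 23.3 TPM against at most 2.24 TPM. These genes were singled out after their values were seen.

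Among heat shock genes, Hsp90aa1, Hspa8, Hspd1 and Hspe1, 4 of 19, were below each of the 16 libraries of the Taar5 line in both Taar6-line libraries, against 2.91% of all genes, while Hsf2 was above them in both and the other 14 were in neither class. Hspa8 was 279.7 and 254.1 TPM, where the Taar5 line ran from 1326 to 4104 TPM. Line, reporter, age and any difference in how the libraries were made cannot be told apart, and with 1 library of each kind there was no test.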
